A study of Mus musculus with 8 samples.

Results

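Extracellular ATP, AMP and NAD are broken down at the cell surface by ectoenzymes, and 8 genes of this purine route were described in sorted mouse B cells: Alpl, Entpd1, Nt5e, Cd38, Ada, Adora2a, P2rx4 and P2rx7. They were taken by symbol from the 26589 genes of the deposited table, each symbol matching 1 Ensembl identifier in GENCODE M21, and all 8 were found. The 8 genes were selected on FPKM values, with the IL-10+ against IL-10- differences of these same libraries known, so these differences are given for them as a description with no test. The data are 8 bulk RNA-seq libraries in 2 groups of 4, named IL-10+ and IL-10-. All came from spleens of IL-10-eGFP Tiger mice, reporter mice whose cells make a green fluorescent protein when they transcribe Il10, and both groups had been cultured with lipopolysaccharide at 3 µg/ml for 48 h before they were sorted on the reporter. A tag in the labels reads untreated, against the protocols, which were followed; no library of unstimulated cells is analysed here. The labels give no age or sex and do not say whether a replicate number (1 to 4 in each group) marks a mouse, a pool or a culture, so the spread between libraries may be partly technical.

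In the textbook route, CD39 (encoded by Entpd1) removes phosphates from ATP and ADP down to AMP, and CD73 (Nt5e) turns AMP into adenosine. Alkaline phosphatase (Alpl) also releases phosphate from nucleotides and from pyrophosphate, CD38 consumes NAD, and adenosine deaminase (Ada) converts adenosine to inosine. ATP opens the P2X channels, and adenosine acts on G protein-coupled receptors such as the one encoded by Adora2a, which raises cyclic AMP. Adenosine made by CD39 and CD73 is one of the known means by which B cells restrain other immune cells, and alkaline phosphatase activity has long served as a sign of B cell activation.

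The promoters of the 4 genes with the clearest separation of the groups are shown because Alpl, Entpd1 and Ada lay higher and Cd38 lower in the same libraries. RefSeq start sites of GRCm38.p6 were matched for 7 of the 8 genes, in 10 windows from 250 bases before to 50 bases after a start, and for each of the 4 genes the most upstream window is printed on the gene's strand. The windows are chr4:137796335-137796634 (minus strand) for Alpl, chr19:40612116-40612415 (plus) for Entpd1, chr2:163750190-163750489 (minus) for Ada and chr5:43868559-43868858 (plus) for Cd38. Capitals mark matches, on either strand, to the GC box GGGCGG, the CCAAT box CCAAT, the TATA box TATAAA, the E-boxes CAGCTG and CACCTG, the cyclic AMP element half-site TGACGT and the PRDM1-type core GNGAAAG.
Alpl: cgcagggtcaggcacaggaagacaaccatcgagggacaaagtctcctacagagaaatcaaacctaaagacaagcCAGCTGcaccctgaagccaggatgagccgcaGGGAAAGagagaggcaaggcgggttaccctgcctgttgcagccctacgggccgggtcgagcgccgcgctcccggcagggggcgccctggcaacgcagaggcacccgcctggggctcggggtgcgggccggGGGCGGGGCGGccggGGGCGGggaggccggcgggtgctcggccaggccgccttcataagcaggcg
Entpd1: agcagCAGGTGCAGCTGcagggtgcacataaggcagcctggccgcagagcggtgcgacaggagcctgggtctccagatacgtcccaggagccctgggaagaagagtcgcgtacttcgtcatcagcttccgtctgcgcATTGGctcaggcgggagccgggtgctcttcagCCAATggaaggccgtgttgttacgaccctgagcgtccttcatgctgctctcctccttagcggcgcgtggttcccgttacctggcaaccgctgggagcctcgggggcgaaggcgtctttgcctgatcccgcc
Ada: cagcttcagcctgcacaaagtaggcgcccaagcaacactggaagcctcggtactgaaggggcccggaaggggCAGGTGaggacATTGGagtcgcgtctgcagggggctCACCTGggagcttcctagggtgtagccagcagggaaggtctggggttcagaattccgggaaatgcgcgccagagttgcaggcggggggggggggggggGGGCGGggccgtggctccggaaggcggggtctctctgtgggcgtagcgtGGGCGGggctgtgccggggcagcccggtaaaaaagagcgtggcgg
Cd38: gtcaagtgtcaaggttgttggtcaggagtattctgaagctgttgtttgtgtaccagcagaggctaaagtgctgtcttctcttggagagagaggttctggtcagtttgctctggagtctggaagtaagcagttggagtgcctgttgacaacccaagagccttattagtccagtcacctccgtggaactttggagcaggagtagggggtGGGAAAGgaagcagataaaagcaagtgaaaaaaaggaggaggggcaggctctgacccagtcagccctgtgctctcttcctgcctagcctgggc
The first Alpl window held 3 GC boxes, 2 of them overlapping each other, 1 CAGCTG E-box and 1 PRDM1-type core. The Entpd1 window held 2 CCAAT boxes and 1 of each E-box, the Ada window 2 GC boxes, 1 CCAAT box and 2 CACCTG E-boxes, and the Cd38 window 1 PRDM1-type core and no other match. Over all 32851 windows, 35.7% held a GC box, 37.4% a CCAAT box, 13.6% a TATA box, 16.3% CAGCTG, 20.2% CACCTG, 7.51% TGACGT and 22.6% the PRDM1-type core. The windows were 70.0%, 64.0%, 68.0% and 51.7% G or C for Alpl, Entpd1, Ada and Cd38. Alpl and Entpd1 each have a second RefSeq window, and the values below are sums over a gene, so they do not show which start was used. The matches are a description of these letters only.

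The libraries held 27380398 to 29968285 reads, as recovered from the deposited FPKM (read counts scaled by gene length and library total), so a single read on 1 kb of exon corresponds to 0.0334 to 0.0365 FPKM. Il10, the gene of the sort, lay at 1.28 to 4.76 FPKM in the IL-10- group, and 32.0 to 44.5 in the IL-10+ group, as the labels have it. All 8 B cell markers of a fixed list passed 1 FPKM, and their summed level was 1439 to 1959 FPKM in the IL-10- group, and 1268 to 1604 in the IL-10+ group. Of these 8, Pax5, Cd22 and Ms4a1 passed as lower in IL-10+ with no overlap, at 138.7 to 179.9 against 76.2 to 103.2 FPKM, 138.1 to 204.2 against 63.4 to 102.6 FPKM and 127.8 to 139.4 against 83.3 to 91.9 FPKM, and the other 5 did not pass. The summed level of 8 plasmablast markers was 334.1 to 463.8 FPKM in the IL-10- group, and 1396 to 1444 in the IL-10+ group, with no overlap. Among the 5 B cell markers that did not pass, Cd79a went the other way. It lay at 451.9 to 632.1 FPKM in the IL-10- group, and 532.8 to 676.0 in the IL-10+ group, with overlap. The plasmablast markers and Pax5, Cd22 and Ms4a1 thus differed between the groups, as did some of the genes described next. The part of these markers in those differences was not tested. In bulk RNA, fewer cells of a type and less RNA per cell cannot be told apart.

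Alpl and Entpd1 were higher and Cd38 was lower in IL-10+ cells among the surface enzymes, Ada was higher, and the receptors Adora2a and P2rx4 had overlapping groups. Of the 8 genes, 6 reached 1 FPKM in at least 4 libraries and entered the fit over 11329 genes (limma on log2(FPKM + 1), adjusted p under 0.05), and Nt5e and P2rx7 did not. In that fit 4 of the 6 passed, 3 higher and 1 lower, where 19.7% of all tested genes passed, 10.6% higher and 9.18% lower in IL-10+. The groups did not overlap for the same 4 of the 6, against 25.2% of all tested genes. With the replicate number as a block 5 of the 6 passed, against 53.7% of all tested genes. The genes were picked with this contrast known, so nothing is read from these counts.

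**Figure D1:**
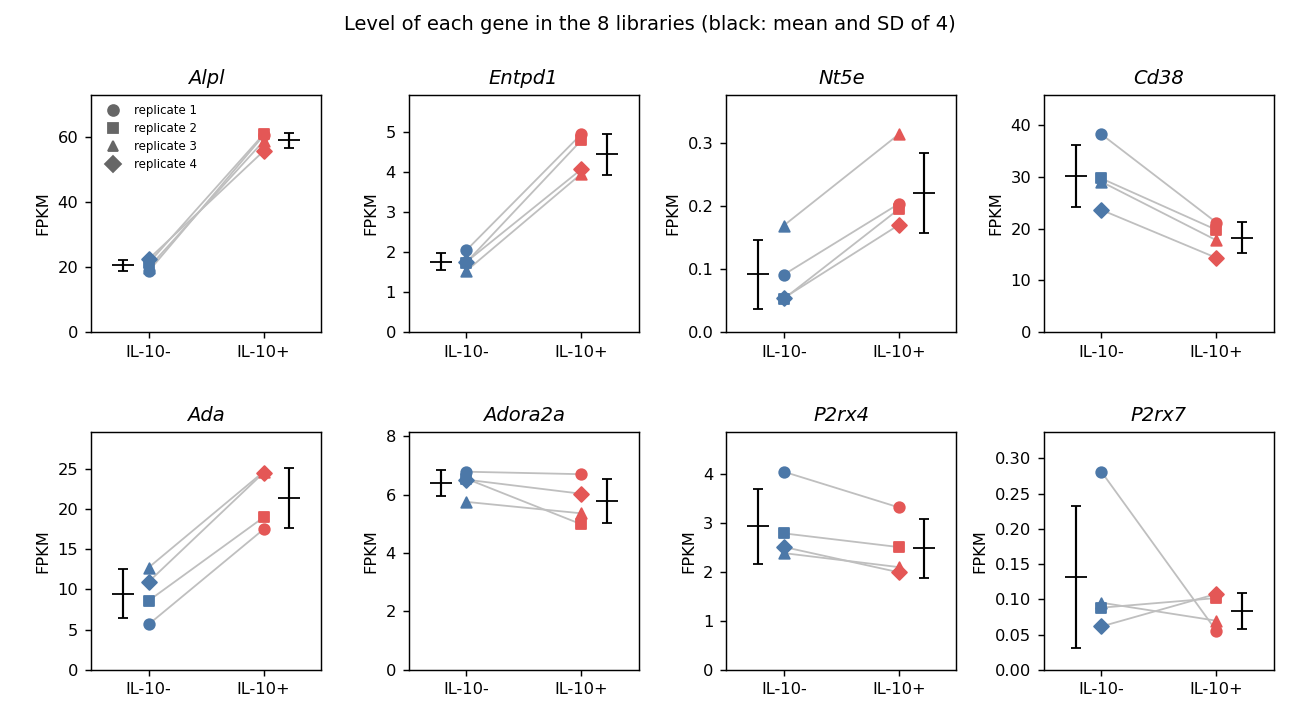
Level of each of the 8 genes in FPKM (vertical axes, from 0, on separate scales) in the IL-10- (blue) and IL-10+ (red) libraries; marker shapes and grey lines give the replicate number, and black bars the mean and SD of 4 libraries. Alpl lay at 18.7 to 22.5 FPKM in the IL-10- group, and 55.7 to 60.9 in the IL-10+ group, while the groups overlapped for Adora2a, P2rx4 and P2rx7.

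Entpd1, whose product CD39 takes the first step on extracellular ATP, was present at a low level. The gene (ENSMUSG00000048120, chr19:40612366-40741602, plus strand, GRCm38) had 2.04, 1.74, 1.53 and 1.75 FPKM in IL-10- replicates 1 to 4 and 4.94, 4.79, 3.95 and 4.07 FPKM in IL-10+ replicates 1 to 4. Every IL-10+ library was above every IL-10- library. The means were 1.77 ± 0.211 FPKM in the IL-10- group, and 4.44 ± 0.50 in the IL-10+ group (SD, n = 4), a ratio of 2.51, and the log2 change of FPKM + 1 was 0.97 (SE 0.0906). Within the replicate numbers the ratio ran from 2.32 to 2.75. These levels rested on 240 to 319 reads in IL-10- and 635 to 755 reads in IL-10+ libraries. The 2 pseudogenes inside Entpd1 that the table lists, Gm16027 and Gm8783, share no exon base with it and stayed at or below 0.548 FPKM. Gm8783 was also listed higher in IL-10+, with no overlap, at 0.235 ± 0.0897 FPKM in IL-10- against 0.477 ± 0.0722 in IL-10+ (SD, n = 4). Gm16027 went the other way, with overlap, at 0.175 ± 0.166 against 0.081 ± 0.101 FPKM.

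Nt5e, which encodes CD73, the classical enzyme for the step from AMP to adenosine, was close to the limit of detection. The gene (ENSMUSG00000032420, chr9:88327197-88372092, plus strand) had 0.0913, 0.0530, 0.169 and 0.0543 FPKM in the IL-10- group, and 0.204, 0.195, 0.314 and 0.17 in the IL-10+ group (replicates 1 to 4 in order). The highest IL-10- library (replicate 3) and the lowest IL-10+ library (replicate 4) all but touched, at 41 reads each. The reads numbered 13 to 41 in IL-10- and 41 to 78 in IL-10+ libraries. The ratio of the means was 2.40, and it was above 1 in 4 of 4 replicate numbers, from 1.86 to 3.69. A fit with no filter on low values gave a log2 change of FPKM + 1 of 0.16 (SE 0.0476), a scale on which so low a gene can hardly move. Compared per length, Entpd1 lay far above Nt5e in every library.

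Alpl, the tissue-nonspecific alkaline phosphatase, was the other enzyme here that can act on AMP, and it was the most abundant of the 8 genes in IL-10+ cells. The gene (ENSMUSG00000028766, chr4:137741733-137796384, minus strand) had 18.7, 21.2, 19.8 and 22.5 FPKM in the IL-10- group, and 60.5, 60.9, 58.8 and 55.7 in the IL-10+ group (replicates 1 to 4 in order). The lowest IL-10+ library lay well above the highest IL-10- library. The means were 20.6 ± 1.64 FPKM and 59.0 ± 2.36 FPKM (SD, n = 4), a ratio of 2.87, and the log2 change of FPKM + 1 was 1.48 (SE 0.0717). Its ratio was 3.23, 2.87, 2.96 and 2.48 in replicate numbers 1 to 4. Its reads numbered 2114 to 2717 in IL-10- and 6288 to 6865 in IL-10+ libraries. Its spread between libraries was small, with a coefficient of variation of 7.96% in IL-10- and 4.0% in IL-10+, and its change ranked 242 from the top among the 11329 tested genes. Neutrophils are another known source of alkaline phosphatase. Of 7 listed neutrophil markers 6 were in the table, and 5 of these stayed under 1 FPKM in all 8 libraries. The summed level of the 6 was 0.313 to 1.41 FPKM in the IL-10- group, and 0.274 to 0.580 in the IL-10+ group, with Ly6g at 0 in all but 1 library. Some markers listed for other cell types were higher than these. Cd68 had 5.83 to 10.1 FPKM in IL-10- against 6.08 to 9.50 in IL-10+ libraries. Pecam1 had 13.3 to 25.3 against 7.65 to 15.5 FPKM, and Ly6c2 0.658 to 1.73 against 1.19 to 3.07 FPKM. The part of other cells in the level of Alpl was not tested.

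**Figure D2:**
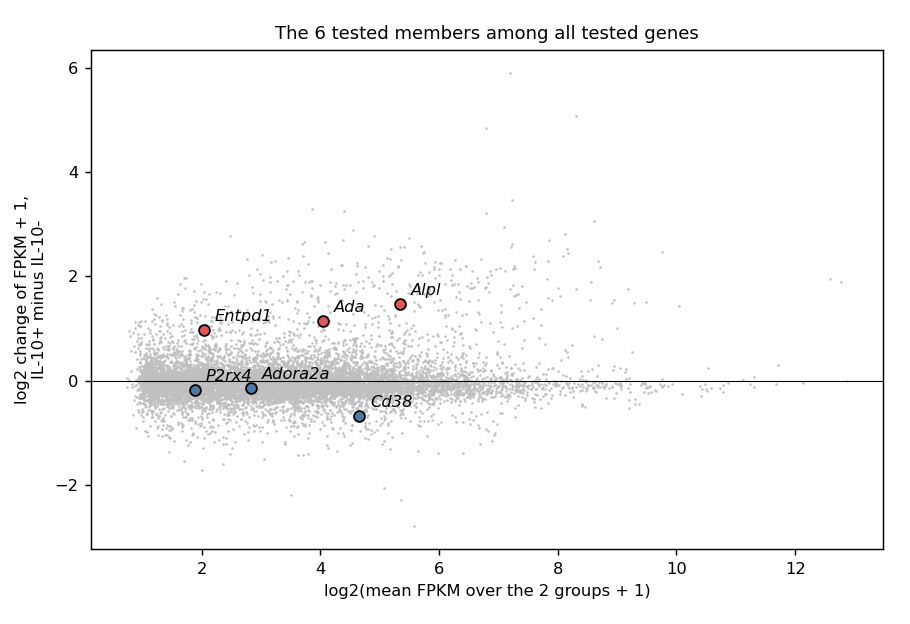
Log2 change of FPKM + 1, IL-10+ minus IL-10- (vertical axis), against the log2 mean level of FPKM + 1 (horizontal axis) for the 11329 tested genes (grey), with the 6 tested purine genes named (red above 0, blue below 0). Alpl at 1.48, Ada at 1.13 and Entpd1 at 0.97 lie above most grey points, Cd38 at -0.69 below them, and Adora2a and P2rx4 within them.

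Cd38, the ectoenzyme that consumes NAD and a surface marker of B cells, went the other way. The gene (ENSMUSG00000029084, chr5:43868553-43912375, plus strand) had 38.2, 29.7, 29.1 and 23.6 FPKM in the IL-10- group, and 21.2, 19.8, 17.8 and 14.4 in the IL-10+ group (replicates 1 to 4 in order). Every IL-10+ library lay below every IL-10- library, and in both groups replicate 1 was the highest and replicate 4 the lowest. The means were 30.1 ± 6.03 FPKM in the IL-10- group, and 18.3 ± 2.96 in the IL-10+ group (SD, n = 4), so IL-10- cells held 1.65 times the level, and the log2 change was -0.69 (SE 0.158, or 0.0458 with the block). The fold was steady across the replicate numbers, from 1.5 to 1.81. An antisense gene inside Cd38, Gm16015, which shares no exon base with it, was also listed lower in IL-10+, at 16.2 ± 5.50 against 8.53 ± 2.38 FPKM (SD, n = 4), and without a known strand setting its reads and unspliced Cd38 reads cannot be told apart. A sense gene inside an intron of Cd38, Gm16014, also shares no exon base with it. It was listed at 0.773 ± 0.243 FPKM in IL-10- against 0.393 ± 0.141 FPKM in IL-10+ (SD, n = 4), with overlap. None of the other NAD ectoenzymes of a fixed list reached the filter: Bst1 and 5 ADP-ribosyltransferase genes were in the table.

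Ada, the enzyme that removes adenosine, was higher in IL-10+ cells, with a wide spread between replicate numbers. The gene (ENSMUSG00000017697, chr2:163726584-163750239, minus strand) had 5.64, 8.58, 12.7 and 10.9 FPKM in the IL-10- group, and 17.5, 19.0, 24.6 and 24.5 in the IL-10+ group (replicates 1 to 4 in order). The groups did not overlap, and in both of them replicates 3 and 4 lay above 1 and 2. The means were 9.47 ± 3.06 FPKM and 21.4 ± 3.72 FPKM (SD, n = 4), a ratio of 2.26. The log2 change was 1.13 (SE 0.222, or 0.0928 with the block), and the ratio within replicate numbers was 3.10, 2.21, 1.94 and 2.24. Its reads numbered 316 to 716 in IL-10- and 958 to 1424 in IL-10+ libraries.

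Adora2a was the one adenosine receptor gene to reach the filter, and the 3 others stayed below it. The gene (ENSMUSG00000020178, chr10:75316877-75334784, plus strand) had 6.79, 6.55, 5.75 and 6.52 FPKM in the IL-10- group, and 6.70, 4.99, 5.36 and 6.03 in the IL-10+ group (replicates 1 to 4 in order). The groups overlapped, although the IL-10+ library was the lower one in 4 of 4 replicate numbers, by almost nothing in replicate 1. The means were 6.40 ± 0.449 and 5.77 ± 0.757 FPKM (SD, n = 4), and the log2 change was -0.13 (SE 0.0909), with a 95% interval of -0.34 to 0.07. That interval holds both a small fall and no difference.

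P2rx4, an ATP-gated channel found on many immune cells, was low in both groups. The gene (ENSMUSG00000029470, chr5:122707544-122729738, plus strand) had 4.05, 2.79, 2.39 and 2.51 FPKM in the IL-10- group, and 3.32, 2.51, 2.1 and 1.99 in the IL-10+ group (replicates 1 to 4 in order). The groups overlapped, replicate 1 was the highest library of each group, and the IL-10+ library was the lower one in 4 of 4 replicate numbers. The means were 2.94 ± 0.763 and 2.48 ± 0.603 FPKM (SD, n = 4), with a log2 change of -0.17 (SE 0.159, 95% interval -0.54 to 0.19). With the replicate number as a block the SE fell to 0.0478 and P2rx4 passed as lower, but it did not pass when the block went with scaling without immunoglobulin and mitochondrial genes. Leaving out IL-10- replicate 1 moved the log2 change to -0.05, and leaving out IL-10+ replicate 1 to -0.28.

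P2rx7, the channel that needs much ATP to open and is known for starting the NLRP3 inflammasome in macrophages, was near the limit of detection. The gene (ENSMUSG00000029468, chr5:122643911-122691432, plus strand) ends 16.1 kb before P2rx4 begins. It had 0.281, 0.0881, 0.0952 and 0.0615 FPKM in the IL-10- group, and 0.0551, 0.102, 0.0696 and 0.108 in the IL-10+ group (replicates 1 to 4 in order), or 47, 15, 16 and 11 reads against 9, 17, 12 and 18 reads. IL-10- replicate 1 stood alone, and among the other 7 libraries the groups overlapped.

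Set in order per length, the 8 genes changed places between the groups. In IL-10- cells the mean level ran from Cd38 at 30.1 through Alpl at 20.6, Ada at 9.47, Adora2a at 6.40, P2rx4 at 2.94, Entpd1 at 1.77 and P2rx7 at 0.132 to Nt5e at 0.0920 FPKM. Among neighbours in this order only Ada and Adora2a, and P2rx7 and Nt5e, had overlapping ranges over the 4 libraries. In IL-10+ cells the order was Alpl at 59.0, Ada at 21.4, Cd38 at 18.3, Adora2a at 5.77, Entpd1 at 4.44, P2rx4 at 2.48, Nt5e at 0.221 and P2rx7 at 0.0836 FPKM. There only the neighbours Ada and Cd38 overlapped. Cd38 thus stood above Alpl in every IL-10- library and below it in every IL-10+ library.

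**Figure D3:**
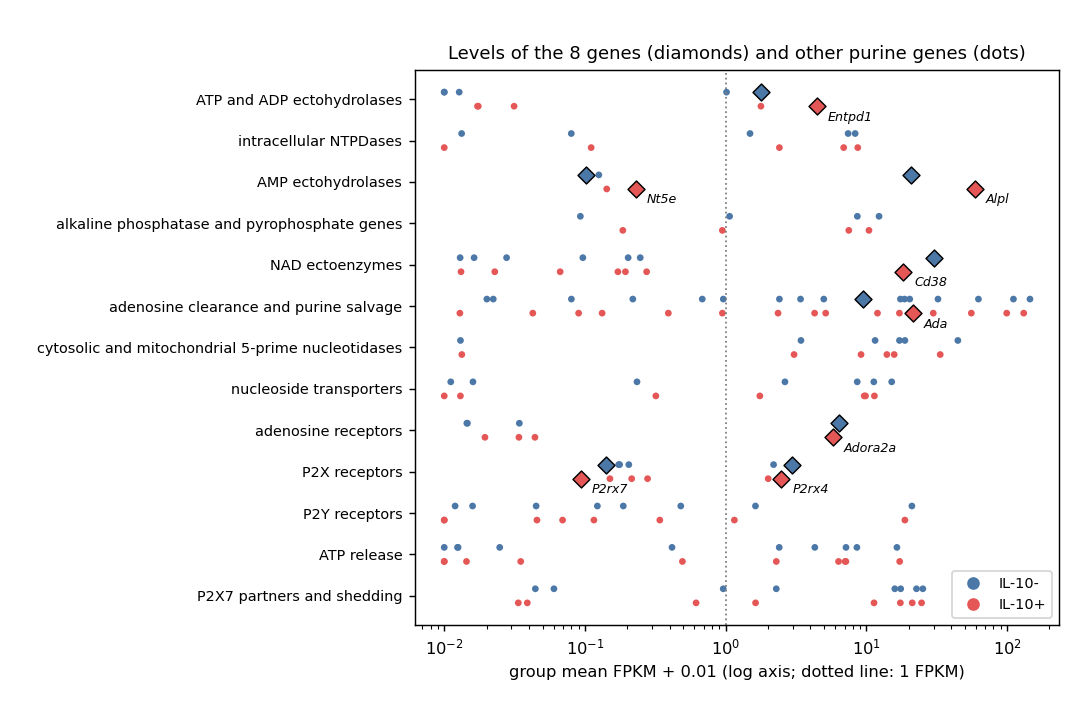
Group mean level (FPKM + 0.01, log axis) of the 8 genes (diamonds, named) and of the 82 other listed purine genes found in the table (dots), by role, in IL-10- (blue) and IL-10+ (red) libraries; the dotted line marks 1 FPKM. Within each group Entpd1 lies above the other genes of the ATP and ADP ectohydrolase row, and Adora2a is the one adenosine receptor gene above the line.

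The rest of the route was taken from a list of 90 other purine genes in 13 roles, of which 82 were in the table and 39 passed the filter. Of these 39, 3 were higher and 5 lower in IL-10+ cells (limma, adjusted p under 0.05), and 31 did not pass, where 19.7% of all tested genes passed. Their median log2 change was -0.13, against -0.06 over all tested genes. With the replicate block 6 were higher and 20 lower, where 53.7% of all 11329 tested genes passed, 2312 higher and 3771 lower.

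Enpp1, like CD39, encodes an enzyme that acts on ATP at the cell surface, here splitting it to AMP and pyrophosphate. It was higher in IL-10+ cells at 1.77 ± 0.465 against 1.0 ± 0.198 FPKM (SD, n = 4, log2 change 0.46, SE 0.136, limma adjusted p = 0.0470). Entpd7 and Entpd5, relatives of CD39 that act inside the cell, were also higher, at 2.40 ± 0.382 against 1.48 ± 0.148 FPKM (limma adjusted p = 0.0128) and 8.67 ± 0.450 against 7.40 ± 0.358 FPKM (limma adjusted p = 0.0493). Enpp1, Entpd7 and Entpd5 were each higher in 4 of 4 replicate numbers. Entpd6, the other tested gene of this intracellular group, went the other way, at 8.31 ± 0.850 FPKM in IL-10- against 6.89 ± 0.247 FPKM in IL-10+ cells. It was lower in 4 of 4 replicate numbers but did not pass (limma adjusted p = 0.0592, or 0.0213 with the block). The calls of Enpp1 and Entpd5 were weak: leaving out 1 library ended that of Enpp1 in 6 of 8 fits (all but those without IL-10- replicate 1 or IL-10+ replicate 3; adjusted p up to 0.123) and that of Entpd5 in 8 of 8 (adjusted p up to 0.136). With no filter on low values neither passed (adjusted p = 0.114 and 0.0682), and Entpd5 did not pass without a variance trend (adjusted p = 0.0587). Entpd2 and Entpd3, the listed surface relatives of CD39 that were in the table, did not reach the filter.

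Of 5 tested genes for nucleotidases inside the cell, 3 were lower in IL-10+ cells and 2 did not pass, where 9.18% of all tested genes passed as lower. Nt5c was at 44.6 ± 2.18 FPKM in IL-10- cells but at 33.5 ± 1.04 FPKM in IL-10+ cells (SD, n = 4), a log2 change of -0.41 (SE 0.0604, limma adjusted p = 0.00187). Nt5c3b fell from 17.2 ± 0.909 to 13.97 ± 0.373 FPKM (limma adjusted p = 0.0109) and Nt5c3 from 11.5 ± 1.26 to 9.15 ± 0.542 FPKM (limma adjusted p = 0.0356). These 3 were lower in 4 of 4 replicate numbers. Nt5c2, at 18.8 ± 1.098 against 15.8 ± 1.23 FPKM, did not pass (limma adjusted p = 0.0528, or 0.0109 with the block), nor did Nt5m, at 3.42 ± 0.62 against 3.05 ± 0.283 FPKM (limma adjusted p = 0.506). The call of Nt5c3 ended in 6 of 8 fits that left out 1 library, all but those without IL-10- replicate 1 or 4 (adjusted p up to 0.0917), under median-of-ratios scaling (adjusted p = 0.0655) and with no filter on low values (adjusted p = 0.0651).

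Around the P2X7 channel, Gsdmd, which encodes the pore protein gasdermin D, was at 15.9 ± 2.08 FPKM in IL-10- cells but at 11.3 ± 0.659 FPKM in IL-10+ cells (SD, n = 4), a log2 change of -0.45 (SE 0.0947, limma adjusted p = 0.0107). Pycard, the inflammasome adaptor, fell from 2.28 ± 0.209 to 1.62 ± 0.197 FPKM (limma adjusted p = 0.0288), a call that ended without IL-10- replicate 2 or 3 or IL-10+ replicate 1 or 3 (adjusted p up to 0.0859) and with no filter on low values (adjusted p = 0.0822). The other 3 of the 5 tested genes around the channel did not pass: Casp1 had 25.2 ± 4.28 against 21.2 ± 2.69 FPKM (limma adjusted p = 0.292, or 0.0166 with the block), Adam10 22.7 ± 0.601 against 24.7 ± 0.8 FPKM (limma adjusted p = 0.186, or 0.0277 with the block) and Adam17 17.5 ± 0.635 against 17.4 ± 0.927 FPKM (limma adjusted p = 0.94). Nlrp3 and Il1b did not reach the filter.

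In the other roles no gene passed without the block. With the block most of those named here did, where 53.7% of all tested genes passed. Of 10 tested genes of adenosine clearance and purine salvage, the most abundant were Hprt (145.3 ± 13.3 in IL-10- against 131.2 ± 9.67 FPKM in IL-10+, limma adjusted p = 0.298, or 0.0128 with the block) and Ahcy (110.9 ± 12.95 against 99.3 ± 9.82 FPKM, limma adjusted p = 0.362, or 0.00557 with the block). Both sit in the salvage and methyl-cycle steps around adenosine. The phosphate transporter genes Slc20a1 (12.3 ± 1.013 against 10.4 ± 0.817 FPKM, limma adjusted p = 0.0963, or 0.00474 with the block) and Slc20a2 (8.61 ± 0.257 against 7.49 ± 0.606 FPKM, limma adjusted p = 0.0888, or 0.00921 with the block) were listed with Alpl; Slc20a2 also passed without IL-10+ replicate 4. Among nucleoside transporters, Slc28a2 had 15.1 ± 4.17 against 11.4 ± 1.2 FPKM (limma adjusted p = 0.187, or 0.0226 with the block) and Slc29a1 11.3 ± 1.73 against 9.85 ± 1.15 FPKM (limma adjusted p = 0.363, or 0.0176 with the block). Each of these 6 genes was lower in IL-10+ in 4 of 4 replicate numbers. Ahcyl2, a less abundant gene of adenosine clearance named after its values were seen, went the other way. It had 3.39 ± 0.448 against 4.28 ± 0.866 FPKM and was higher in IL-10+ in 4 of 4 replicate numbers (limma adjusted p = 0.199, or 0.00796 with the block).

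Of the ATP release genes, Panx1, a channel for ATP, had 8.55 ± 0.869 against 7.05 ± 0.522 FPKM (limma adjusted p = 0.0738, or 0.00207 with the block). Lrrc8d, a subunit of volume-regulated anion channels named here after its values were seen, went the other way, with 4.29 ± 1.38 against 6.33 ± 1.88 FPKM and a higher value in IL-10+ in 4 of 4 replicate numbers (limma adjusted p = 0.197, or 0.000432 with the block). Slc17a9, the vesicular nucleotide transporter, had 16.5 ± 2.06 against 17.2 ± 2.12 FPKM and passed in neither fit (limma adjusted p = 0.75 and 0.154). Among the other receptor genes, P2ry10 had 21.04 ± 6.79 against 18.8 ± 3.76 FPKM (limma adjusted p = 0.741, and 0.166 with the block) and P2ry10b 1.62 ± 0.385 against 1.14 ± 0.0755 FPKM (limma adjusted p = 0.111, or 0.0302 with the block). Both carry the P2Y name, but whether their products respond to nucleotides was not examined here. The other P2Y genes in the table, P2ry1, P2ry2, P2ry4, P2ry12, P2ry13 and P2ry14, did not reach the filter.

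**Figure D4:**
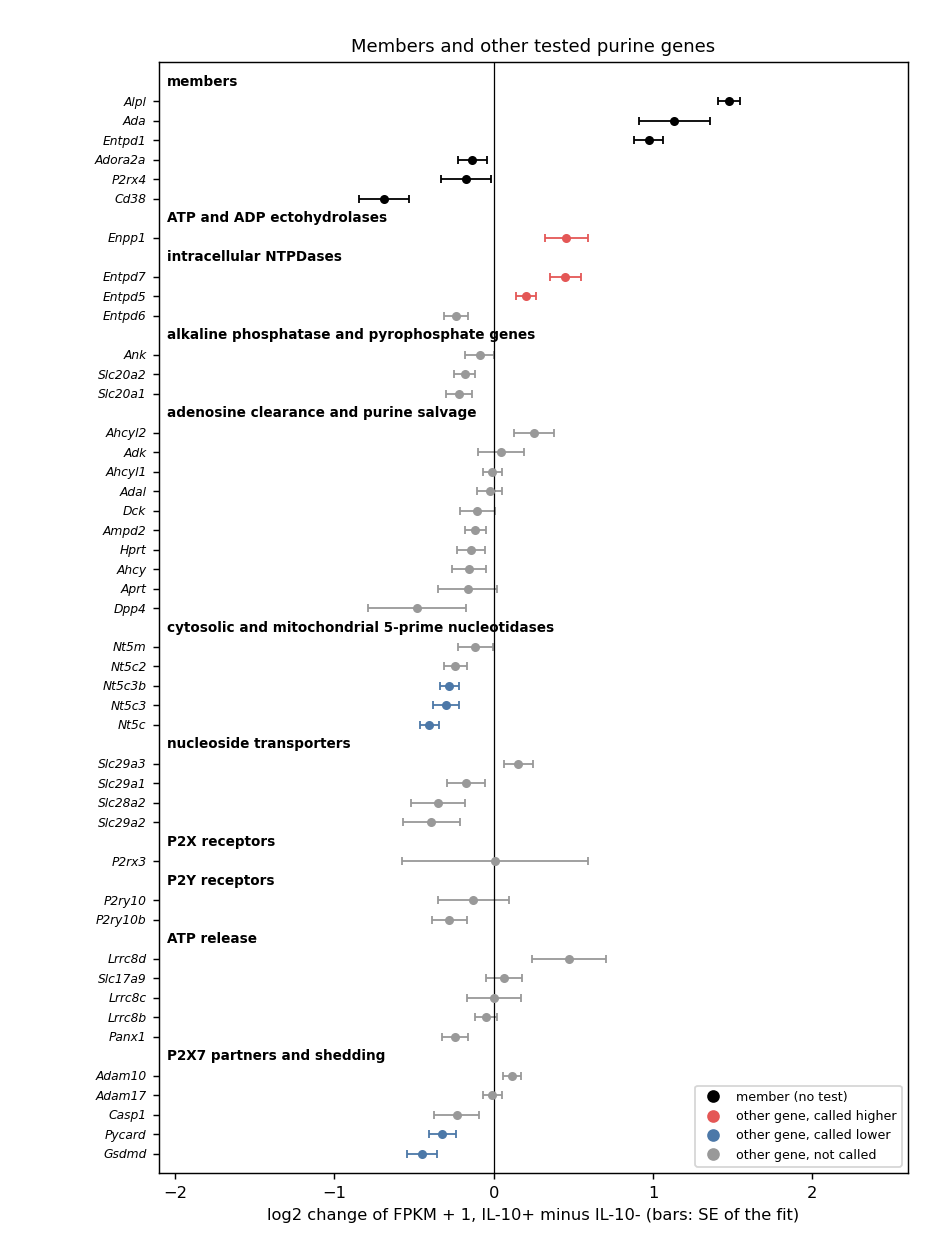
Log2 change of FPKM + 1, IL-10+ minus IL-10-, with the SE of the fit (horizontal axis) for the 6 tested genes of the set (black, described with no test) and for the 39 other tested purine genes by role (red called higher, blue called lower, grey not called). The 3 red points lie between 0.20 and 0.46 and the 5 blue points between -0.45 and -0.28, all nearer to 0 than Alpl, Ada and Entpd1.

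The genes whose level followed each of the 6 most closely over the 8 libraries were ranked by Pearson's r of log2(FPKM + 1) among 9355 other tested genes. Alpl was followed by Glipr1 (r = 0.998; 12.2 FPKM in the IL-10- group, and 45.8 in the IL-10+ group), Pon3 (r = 0.997) and Fndc3b (r = 0.997). Entpd1 was followed by Sel1l (r = 0.997), Zbtb38 (r = 0.996) and Os9 (r = 0.994), and Ada by Dnajb11 (r = 0.994), Clptm1l (r = 0.993) and Pdia6 (r = 0.992). Cd38 was followed by Bbs2 (r = 0.997), Grb2 (r = 0.995) and Ifi213 (r = 0.993). P2rx4 was followed by genes that included Acox3 (r = 0.992) and Pkmyt1 (r = 0.988). Adora2a was followed by Mir343 (r = 0.991; 2.21 FPKM in the IL-10- group, and 1.32 in the IL-10+ group) and less closely by Slc22a5 (r = 0.95) and Tug1 (r = 0.933). Mir343 is a microRNA gene at a low level, and the reads behind it are not given here. The 8 points share their 2 groups and 4 replicate numbers, so these values describe likeness only.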

How the data were processed

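The authors deposited 1 table of FPKM values for 8 libraries. HISAT2 2.1.0, HTSeq 0.6.0 and mm10 are named in the submitters' processing notes. Strand setting, annotation release and treatment of shared reads: not given in the sources used here. Groups and replicate numbers came from the titles, and columns were matched by the names in the descriptions. GENCODE M21 (GRCm38, the same build) named 26517 of 26589 identifiers and gave exon lengths. With these, 93.5% to 93.6% of values above 0 came out within 0.05 of whole reads, which gave reads per gene. Libraries of a group were no near-copies (chi-square per degree of freedom 9.86 to 92.8), but they were not equally unlike. Replicates 3 and 4 were closest, at 9.86 in IL-10+ and 10.4 in IL-10-. Replicates 1 and 2 came next, at 18.2 in IL-10+ and 29.1 in IL-10-, and all other pairs had 40.7 to 92.8. The labels do not say what sets replicates 1 and 2 apart from 3 and 4.

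Groups were compared with limma 3.58.1 (R 4.3.3), variance trend, on log2(FPKM + 1) over genes reaching 1 FPKM in 4 or more libraries, adjusted by Benjamini-Hochberg over all 11329. This scale shrinks the fold change of a low gene. The fit was tested on simulated data with independent noise in each library, so that test does not cover the likeness of same-numbered libraries given next. Across genes, same-numbered libraries deviated together from their group means (r = 0.712, 0.583, 0.621 and 0.700). The numbers thus appear to pair the samples, which comes from the data, not from the labels. The main fit left the replicate number out, and the fits with it as a block are alternatives.

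The 8 genes and the lists were chosen with earlier results of these data known. Named besides them were, per role, up to 4 called genes with the largest change, or the 2 most abundant tested where fewer than 2 were called, and the 3 genes of highest r (predicted genes, pseudogenes and immunoglobulin segments left out). One gene that this rule names is not reported here. Genes named as below the filter, neighbours and the values of Nt5c2, Nt5m, Casp1, Adam10, Adam17, Lrrc8d, Entpd6, Ahcyl2, Dpp4, Pnp and Entpd4 fall outside this rule. Alternatives were other pseudocounts, filters and scalings, no variance trend, the block and leaving out each library.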

Additional observations from a re-analysis of the deposited data

Results flagged for a closer look

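In 54 groups of 4 libraries, 6 values lay far from the other 3 of their group by Dixon's criterion, where chance flags about 1 in 20 groups. P2rx7 in IL-10- replicate 1 was at 0.281 FPKM. P2ry10b in the same library was at 2.20 FPKM. Entpd5 in IL-10- replicate 2 was low, at 6.87 FPKM. Slc20a1 in IL-10+ replicate 2 was low, at 9.20 FPKM. Slc20a2 was high in replicate 4 of both groups, at 9.0 FPKM (IL-10-) and 8.39 FPKM (IL-10+).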

How the results depend on the processing

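The log2 changes ranged over the alternatives from 1.44 to 1.52 for Alpl, 0.93 to 1.28 for Ada, -0.79 to -0.57 for Cd38, 0.93 to 1.33 for Entpd1 (not tested at 5 FPKM), -0.2 to -0.08 for Adora2a and -0.28 to -0.05 for P2rx4 (not tested at 5 FPKM); since the genes were chosen with this contrast known, this is a description. P2rx4 passed with the replicate block (-0.17) and with the block and median-of-ratios scaling (-0.15), and in no other fit. The numbers of other purine genes called were 3 higher and 5 lower (1196 and 1040 of all 11329 tested genes). They were 6 and 20 with the replicate block (2312 and 3771 of all), 6 and 19 with the block and median-of-ratios scaling (2535 and 3184), and 6 and 19 with the block and scaling without immunoglobulin and mitochondrial genes (2551 and 3112). They were 1 and 3 with no filter on low values (1343 and 828 of 26589), and 1 higher with at least 5 FPKM (899 of 7417). Leaving out 1 library gave 1 to 3 higher (920 to 1171 of all) and 3 to 7 lower (600 to 940 of all); the higher count was 1 without IL-10- replicate 2, 3 or 4 or IL-10+ replicate 1, 2 or 4, and the lower count was 3 without IL-10- replicate 2 or 3 or IL-10+ replicate 1 or 3. By construction, leaving out 1 library gives fewer samples, the filter at 5 FPKM tests fewer genes, and no filter tests more. The block fits kept all 8 libraries. Apart from these settings, the cause of the moved counts was not tested. Nt5e and P2rx7 rest on 9 to 78 reads a library.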

Other observations

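Some purine genes outside the main set varied with the replicate number; Dpp4, Pnp, Pnp2, Entpd4 and Entpd4b were picked after their values were seen. P2rx3, a P2X channel gene best known from sensory neurons, had 4.92, 2.93, 0.166 and 0.706 FPKM in IL-10- replicates 1 to 4, against 3.98, 2.81, 0.385 and 0.807 FPKM in IL-10+ replicates 1 to 4. Replicates 1 and 2 of both groups were the high ones. Dpp4, which encodes CD26, a surface protein that binds adenosine deaminase in humans, had 24.9, 21.9, 11.7 and 11.3 FPKM in IL-10- replicates 1 to 4, against 15.9, 15.02, 8.06 and 8.94 FPKM in IL-10+ replicates 1 to 4. It was lower in IL-10+ in 4 of 4 replicate numbers, with a limma adjusted p = 0.321, or 0.001 with the block.

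Pnp, a purine salvage enzyme, was listed at 0.0559 to 0.181 FPKM, and its close relative Pnp2 at 0.654 to 1.22 FPKM. Entpd4 was listed at 0.00442 FPKM or less and Entpd4b at 0.111 FPKM or less. Pnp2 (chr14:50955992-50964749) lies inside the span of Pnp (chr14:50931082-50965237), both on the plus strand. Entpd4 and Entpd4b have the same exon length, 8074 bases. No source used here says how reads shared by related or overlapping genes were counted, and sharing between these genes was not tested. The low levels of Pnp, Entpd4 and Entpd4b are therefore not read as absence.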
